A study of Mus musculus with 19 samples.

Results

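The well-expressed zinc finger protein (Zfp) genes of CD11b+ mouse brain cells were described across *PARK7*/DJ-1 genotype and treatment with lipopolysaccharide (LPS). A gene belonged to the group when GENCODE lists it as protein-coding, its symbol is Zfp followed by a number, and its mean level over all 19 libraries was at least 10 CPM (counts of a gene after division by the library's total and scaling to a common size). *Zfp36*, which encodes an mRNA-destabilising protein of another finger type, was left out. The rule took in 191 of the 383 numbered protein-coding Zfp genes in a count table of 56980 genes. The genes were thus selected on their mean measured level over all libraries, and the levels given here are a description. All 191 genes were tested for changes with LPS and with genotype. The rule is not independent of the LPS change, since its mean runs over PBS and LPS libraries together. By raw mean, 4 of the 191 genes were under 10 CPM in the PBS libraries and passed through the LPS libraries, and 3 of them were called higher with LPS in each genotype. Another 17 were under 10 CPM in the LPS libraries, of which 12 were called lower in wildtype and 13 in KO mice. Such genes had to differ, so the counts, medians and ranks with LPS given here describe the 191 genes and support nothing further. The same holds for the tests of these genes with LPS. They include *Zfp593* and *Zfp930*, which passed through the LPS libraries, and *Zfp467*, *Zfp395*, *Zfp69* and *Zfp366*, which passed through the PBS libraries.

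Total RNA was sequenced from brain cells that bound magnetic beads against CD11b, an integrin on the surface of microglia and of other cells of the myeloid lineage. All mice were male and 3 to 4 months old. The KO mice carried a gene trap in *Park7*, the gene for DJ-1, in the line B6;129P2-Park7Gt(XE726)Byg/Mmucd backcrossed to C57BL/6NCrl, and the wildtype mice were their littermates. The 5 KO and 5 wildtype mice of the LPS groups received 4 μg of *E. coli* LPS per g body weight intraperitoneally and were sampled after 6 h. The 5 KO and 4 wildtype mice of the PBS groups, named so in the labels, received the saline vehicle. Each library came from 1 mouse. The gene trap was present in every cell of the KO mice, so it was not limited to the sorted cells.

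Most zinc finger proteins of the C2H2 type hold a zinc ion with a pair of cysteines and a pair of histidines in each finger, and successive fingers read successive bases of DNA. Many of them also carry a KRAB box at the front of the protein, through which they recruit the scaffold TRIM28 and with it enzymes that lay down repressive chromatin, and a large part of the class silences transposable elements. Others have no KRAB box and act as transcription factors, as partners of chromatin complexes, or on RNA and ribosomes.

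Zinc fingers were counted and the KRAB box was searched in the protein translated from the longest coding sequence of each gene. A KRAB box was found in 88 of the 191 genes and not found in 103. A diverged box, or one that lies only in another transcript, would have been missed. The median number of fingers was 12 in the genes with the box and 8 in those without it, and the number ranged from 0 in 5 genes to 36 in *Zfp142*. The DNA that encodes 1 finger of each of 4 genes that changed with LPS is given here, with the codons of the cysteines and histidines in capitals, read from GRCm39. They lie at chr1:136553801-136553863 (plus strand), chr6:48416105-48416167 (minus), chr4:119027916-119027978 (minus) and chr9:22190295-22190357 (minus), in this order, and each encodes the same spacing of 21 residues around different contact residues.
Zfp281: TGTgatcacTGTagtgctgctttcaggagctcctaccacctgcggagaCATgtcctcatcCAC
Zfp467: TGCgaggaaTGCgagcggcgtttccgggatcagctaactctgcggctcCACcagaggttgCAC
Zfp691: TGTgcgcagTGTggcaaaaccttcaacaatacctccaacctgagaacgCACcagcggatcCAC
Zfp810: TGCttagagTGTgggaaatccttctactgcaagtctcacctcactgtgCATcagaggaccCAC

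A stretch of the KRAB box is shown for a gene that fell after LPS and for one that rose, with the codons of the glutamate and tryptophan common to the class in capitals. They were read from GRCm39 at chr9:22195380-22195421 (minus strand) and chr7:29697193-29697234 (plus strand).
Zfp810: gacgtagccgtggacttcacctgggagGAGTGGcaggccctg
Zfp568: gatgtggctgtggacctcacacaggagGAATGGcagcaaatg

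The libraries held 11936364 to 22788884 counts, so that 3 counts in a library corresponded to 0.132 to 0.251 CPM of its total. Such limits cover counting error only. *Park7* itself, in CPM, lay between 20.6 and 32.1 in the 9 wildtype libraries and between 0.457 and 5.38 in the 10 KO libraries, without overlap. Of the marker lists, the summed level of 11 microglial genes was 25589 to 41191 CPM in the PBS libraries and 10912 to 17475 CPM after LPS, with 10 of the 11 genes lower after LPS in both genotypes. Of 7 monocyte markers 5 rose in both genotypes (with medians of 2.54 and 2.20 on the log2 scale), and their sum was 284 to 462 CPM at PBS and 308 to 755 CPM after LPS. Of 10 neutrophil markers 5 rose and 1 fell in both, with sums of 416 to 664 CPM at PBS and 301.3 to 799 CPM after LPS. Most of the PBS sum was *Csf3r*, the faller, with a mean of 466 CPM at PBS and 299.6 CPM after LPS in wildtype mice. *S100a8* went from 20.2 to 93.2 CPM there. The B cell markers summed to 162 to 327 CPM at PBS and to 18.9 to 39.004 CPM after LPS, without overlap. Nearly all of that was *Ighm*, with means of 218 and 24.4 CPM in wildtype mice. Only 2 of the 5 markers were tested, both lower, and *Cd79a* went from 0.031 to 0.410 CPM in wildtype mice. Of 6 markers each of border-associated macrophages and of endothelial cells, 3 fell in both genotypes. The endothelial gene *Cdh5* went from a mean of 42.4 to 105.03 CPM in wildtype mice, which did not pass the test, and rose from 39.7 to 96.4 CPM in KO mice. The T and NK cell markers summed to at most 11.6 CPM. The 7 oligodendrocyte markers summed to 566 to 11445 CPM and were highest in KO LPS replicate 1 and wildtype PBS replicate 2. In bulk RNA, fewer cells of a type and less RNA per cell cannot be told apart, and the part of these cell types in the Zfp results was not tested except by the fits named beside them.

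The raw mean level of the 191 genes ranged from 10.1 to 309.7 CPM with a median of 26.4 CPM. Just inside the threshold stood *Zfp637* at 10.1 CPM and *Zfp229* at 10.4 CPM, and just outside it *Zfp455* at 9.87 CPM and *Zfp128* at 9.79 CPM. Per kb of exon, the highest level was that of *Zfp710* with 26.99 CPM per kb, followed by *Zfp106* with 23.1, *Zfp871* with 22.8, *Zfp703* with 22.6 and *Zfp598* with 21.9 CPM per kb. Of these, *Zfp106* encodes an RNA-binding protein needed to maintain motor neurons, *Zfp703* a transcriptional corepressor, and *Zfp598* a ubiquitin ligase that marks collided ribosomes. *Zfp871* carries a KRAB box. It had 273 ± 35.3 CPM (SD, n = 4) at PBS and 231 ± 19.2 CPM (SD, n = 5) after LPS in wildtype mice, a difference that did not pass the test (log2FC = -0.24, edgeR adjusted p = 0.111). The genes with a KRAB box had a lower median raw level, 19.8 CPM, than those without, 38.1 CPM. The shared sequence that could split or move reads between genes was small for most: 96 of the 191 genes shared no 75-base word with another gene and 11 shared over 10% of their words.

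LPS against PBS in each genotype showed which Zfp genes changed in the 6 h after the injection. A gene was called when the edgeR quasi-likelihood test gave an adjusted p-value under 0.05, over all 18739 genes tested, and a |log2FC| of at least 0.5. In wildtype mice 27 of the 191 genes rose and 46 fell, or 14.1% and 24.1%, where 18.4% and 17.4% of all genes tested did. In KO mice 29 rose and 49 fell, or 15.2% and 25.7%, against 20.1% and 19% of all genes tested. Of these, 24 rose in both genotypes and 44 fell in both, where 16.8% and 15.4% of all genes did. Scaling by total counts in place of TMM gave 19 higher and 61 lower in wildtype and 20 higher and 61 lower in KO mice, so that the share of called genes that were higher went from 37.0% to 23.8% and from 37.2% to 24.7%. All genes tested moved the same way. In wildtype mice 3045 of the 18739 were higher and 3672 lower with this scaling, where TMM gave 3456 and 3265. In KO mice the counts were 3166 and 4130, where TMM gave 3759 and 3564. This scaling moved the median log2FC of all genes from -0.06 to -0.15 in wildtype and from -0.01 to -0.12 in KO mice.

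Over the 191 Zfp genes, the log2FC had a median of -0.14 in wildtype mice and of -0.10 in KO mice, where all genes tested had -0.06 and -0.01. The KO median rested on KO LPS replicate 1: without it the Zfp genes were at -0.02 and all genes at -0.04, so that their order turned. Scaling by total counts gave -0.22 and -0.20 for the Zfp genes. Among the 9434 protein-coding genes with a raw mean level of at least 10 CPM, it was 0.06 and 0.07, and 25.2% rose and 19% fell in wildtype mice. The 145 tested Zfp genes below the level threshold had medians of -0.39 and -0.42. Of them 4 rose and 50 fell in wildtype mice (2.76% and 34.5%, against 18.4% and 17.4% of all genes tested). Their selection is not independent of the LPS change either. By raw mean, 16 Zfp genes left out were at or over 10 CPM in the PBS libraries, of which 11 were called lower in wildtype mice. Only 1 was so in the LPS libraries, and it was not called. Among the 191 Zfp genes, calls in wildtype mice alone were 3 higher and 2 lower (1.57% and 1.05%, against 1.61% and 2.02% of all genes tested). Calls in KO mice alone were 5 higher and 5 lower (2.62% each, against 3.22% and 3.61%). None of these genes passed the test of the difference between genotypes. Of all 191, 106 had a negative and 72 a positive log2FC in both genotypes, and 13 differed in sign. Both comparisons were fitted together, but they use different mice.

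As a share of all counts of a library, the Zfp genes took 0.872 to 0.945% in the wildtype PBS group and 0.748 to 0.861% in the wildtype LPS group. In KO mice the share was 0.875 to 0.950% at PBS and 0.744 to 0.842% after LPS. Every LPS library lay below every PBS library, and the genotypes overlapped. These shares are of total counts, without TMM. With that scaling the median log2FC of all genes tested was -0.15 in wildtype and -0.12 in KO mice. The genes without a KRAB box took 0.590 to 0.632% in the 9 PBS libraries and 0.489 to 0.583% in the 10 LPS libraries, again without overlap. Those with the box overlapped, with 0.272 to 0.322% at PBS and 0.213 to 0.278% after LPS. Their lowest PBS share in each genotype, 0.272%, was in wildtype PBS replicate 2 and KO PBS replicate 1. The mean KRAB share went from 0.305 to 0.255% in wildtype and from 0.297 to 0.251% in KO mice. For the genes without the box the means went from 0.613 to 0.555% and from 0.612 to 0.545%. The lowest KRAB share was that of KO LPS replicate 1, which had the highest oligodendrocyte marker sum and also the highest share of rRNA and mitochondrial reads, 1.42% against at most 0.672% in the other 18 libraries. The part of either in the low share was not tested. Without that library 32 Zfp genes rose and 42 fell in KO mice, beside 4058 and 3563 of all 18643 genes then tested. Without wildtype PBS replicate 2 there were 22 that rose and 48 that fell in wildtype mice, beside 3386 and 2962 of all 19050.

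**Figure D1:**
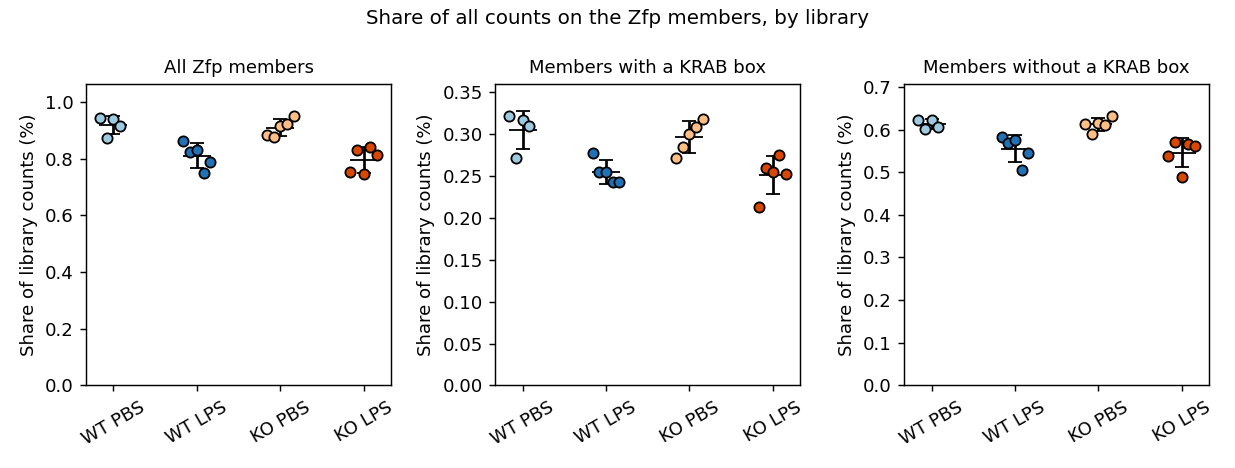
Share of all counts in a library (%, vertical axis) that fell on the 191 Zfp genes, on the 88 with a KRAB box and on the 103 without, with 1 point per mouse and the mean and SD for each group (n = 4 for WT PBS, 5 for the others). The LPS libraries lie below the PBS libraries for all Zfp genes and for those without a KRAB box, while the KRAB genes overlap. Shares are of total counts without TMM, a scaling in which the median log2FC of all genes tested was also negative in both genotypes.

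**Figure D2:**
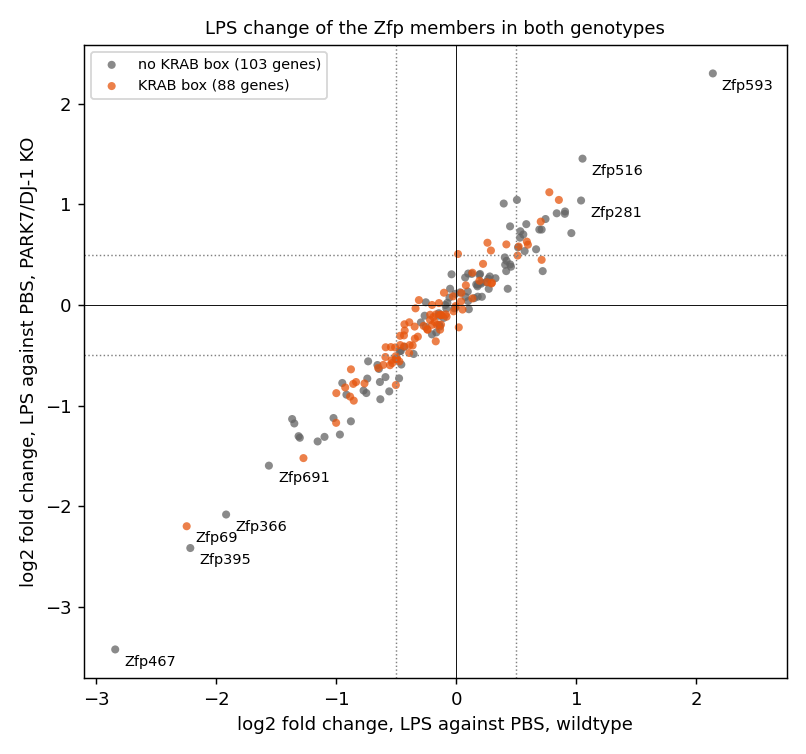
Log2 fold change of LPS against PBS in wildtype mice (horizontal axis) and in PARK7/DJ-1 KO mice (vertical axis) for the 191 Zfp genes, 1 point per gene, coloured by whether a KRAB box was found, with dotted lines at 0.5 on each side of 0. Most points lie along the diagonal, with *Zfp593* at the upper right and *Zfp467* at the lower left.

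Of the 24 genes that rose in both genotypes, 17 had LPS libraries that lay wholly above the PBS libraries in both. The share of all genes tested that meet this joint condition was not counted. Libraries did not overlap, with LPS higher, for 32 of the 191 Zfp genes in wildtype and 21 in KO mice. Among all genes tested this held for 20.8% in wildtype and 16.2% in KO mice. The 8 with the greatest mean log2FC were *Zfp593*, *Zfp516*, *Zfp281*, *Zfp930*, *Zfp330*, *Zfp131*, *Zfp598* and *Zfp146*.

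*Zfp593* (chr4:133970600-133972910, minus strand of GRCm39) encodes a short protein with 1 finger that is known from the nucleolus and from maturation of the large ribosomal subunit. Its levels in the wildtype PBS libraries were 7.40, 8.61, 6.77 and 6.89 CPM, and in the wildtype LPS libraries 29.4, 29.9, 36.01, 39.6 and 28.3 CPM. In KO mice they were 8.53, 9.10, 6.91, 7.33 and 6.43 CPM at PBS and 31.7, 41.9, 30.3, 34.01 and 51.03 CPM after LPS. The LPS libraries of either genotype were all more than 3 times as high as any PBS library, and the log2FC of 2.14 ± 0.174 (SE) in wildtype (edgeR adjusted p = 2.11e-08) and 2.30 ± 0.160 (SE) in KO mice (adjusted p = 2.15e-09) was the greatest rise among the 191 genes. With all PBS libraries under 10 CPM, *Zfp593* belonged to the group through its LPS libraries, so a rise was built into its selection.

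*Zfp516* (chr18:82928715-83023590, plus strand of GRCm39), an activator of the thermogenic gene *Ucp1* in brown fat and a partner of the CtBP and LSD1 corepressor complex, had 10 fingers. It stood at 75.5, 73.3, 79.2 and 67.8 CPM in the wildtype PBS libraries and at 110.3, 115, 158, 189 and 195 CPM after LPS. The KO mice had 72.4, 71.4, 72.3, 76.996 and 77.9 CPM at PBS and 129, 189, 276, 161 and 262 CPM after LPS. The PBS libraries were tightly grouped and the LPS libraries spread widely above them, with log2FC of 1.05 ± 0.203 (SE) in wildtype (edgeR adjusted p = 0.000331) and 1.45 ± 0.190 (SE) in KO mice (adjusted p = 4.15e-06).

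*Zfp281* (chr1:136552639-136560840, plus strand of GRCm39), a transcription factor that binds GC-rich DNA and is known from the control of pluripotency, showed the same order. Wildtype levels were 52.9, 47.8, 50.3 and 44.4 CPM at PBS and 83.7, 84.97, 99.1, 118 and 115.9 CPM after LPS, and KO levels 48.3, 48.9, 50.96, 48.1 and 46.4 CPM and 71.9, 98.4, 119, 101 and 108.1 CPM. All 10 LPS libraries were above all 9 PBS libraries, and log2FC was 1.04 ± 0.133 (SE) and 1.04 ± 0.123 (SE) (edgeR adjusted p = 3.91e-06 and 1.32e-06).

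*Zfp131* (chr13:120224222-120253170, minus strand of GRCm39), a BTB-domain transcription factor, had 32.7, 28.4, 35.3 and 27.9 CPM at PBS and 53.7, 52.2, 65.8, 55.8 and 63.3 CPM after LPS in wildtype mice, and 34.8, 33.7, 37.2, 31.7 and 35.5 CPM and 58.3, 64.4, 59.3, 60.9 and 81.4 CPM in KO mice. *Zfp598* (chr17:24888631-24900993, plus strand of GRCm39) had 86.02, 68.4, 76.7 and 73.6 CPM and 132, 126, 155, 115.5 and 151 CPM in wildtype, and 70.6, 63.5, 79.9, 70.1 and 76.2 CPM and 122, 150.1, 101, 126 and 178 CPM in KO mice. Neither gene had an LPS library within the PBS range, and the log2FC of *Zfp131* was 0.90 in wildtype and 0.91 in KO mice, that of *Zfp598* 0.84 and 0.91.

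*Zfp930* (chr8:69661686-69683817, plus strand of GRCm39) was the one gene of these 8 in which a KRAB box was found, and rose from 8.36 ± 1.16 CPM (SD, n = 4) to 15.1 ± 0.726 CPM (SD, n = 5) in wildtype and from 7.47 ± 0.853 CPM to 15.4 ± 2.93 CPM (SD, n = 5 each) in KO mice. Both PBS means were under 10 CPM, so *Zfp930* too was selected through its LPS libraries. *Zfp330*, a nucleolar protein whose cysteine-rich sequence held no finger of the searched form, rose from 13.6 ± 1.81 CPM to 25.4 ± 3.30 CPM in wildtype mice. *Zfp146*, whose protein consists almost wholly of fingers, rose from 22.4 ± 2.22 CPM to 43.5 ± 4.46 CPM in wildtype mice and from 25.5 ± 3.17 CPM to 41.9 ± 5.31 CPM in KO mice. In these 3 genes log2FC lay between 0.71 and 1.04 over both genotypes.

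**Figure D3:**
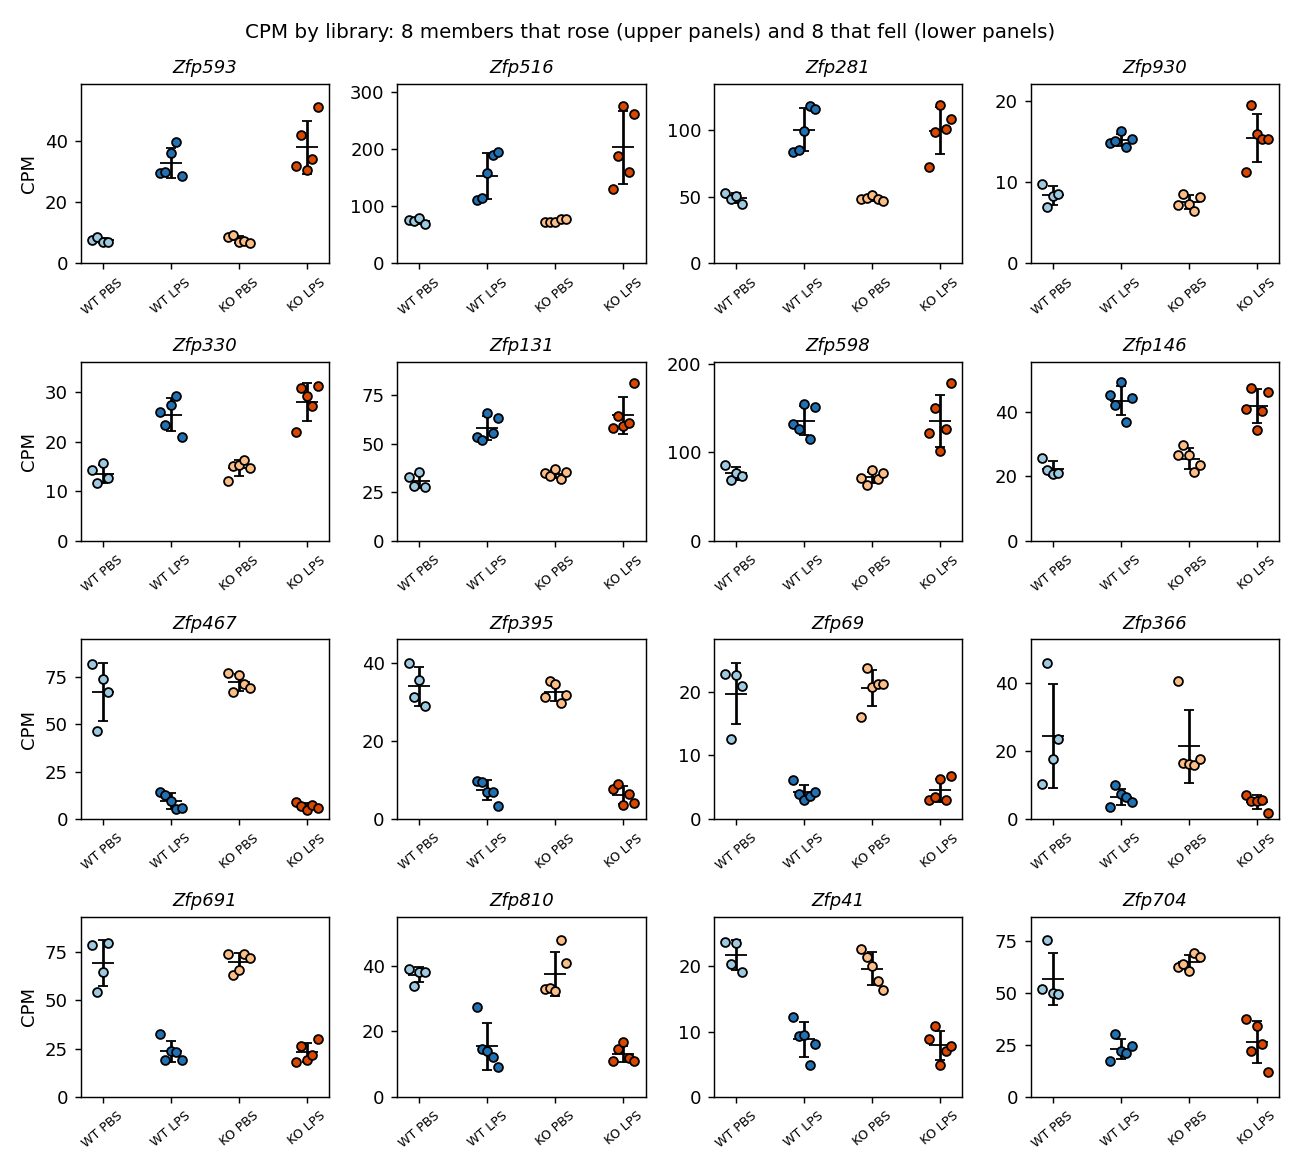
CPM after TMM normalization (vertical axis, linear from 0) in each library of the 4 groups, with 1 point per mouse and the mean and SD, for the 8 Zfp genes with the greatest rise after LPS in both genotypes and the 8 with the greatest fall. In each panel the LPS points do not overlap the PBS points of the same genotype, and *Zfp366* has 1 high PBS library in each genotype.

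The fallers were more numerous: 44 genes fell in both genotypes, and in 33 of them the libraries did not overlap in either. How many of all genes tested meet both conditions was not counted. With LPS lower, the libraries did not overlap for 49 of the 191 Zfp genes in wildtype and 48 in KO mice. Of all genes tested, 17.0% in wildtype and 16.6% in KO mice did so. The 8 with the greatest mean fall were *Zfp467*, *Zfp395*, *Zfp69*, *Zfp366*, *Zfp691*, *Zfp810*, *Zfp41* and *Zfp704*.

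*Zfp467* (chr6:48400971-48422781, minus strand of GRCm39), known to favour fat cell over bone cell formation in marrow stroma, had 12 fingers and no KRAB box found. Its levels in wildtype mice were 81.8, 46.3, 73.8 and 66.8 CPM at PBS and 14.4, 12.4, 9.27, 5.07 and 5.54 CPM after LPS. In KO mice they were 77.2, 67.1, 76.1, 71.2 and 69.1 CPM at PBS and 8.999, 6.69, 4.73, 7.27 and 5.85 CPM after LPS. Every LPS library was far below every PBS library, and log2FC was -2.84 ± 0.263 (SE) in wildtype (edgeR adjusted p = 8.71e-08) and -3.42 ± 0.263 (SE) in KO mice (adjusted p = 6.05e-09), the greatest fall among the 191 genes. Since its mean after LPS was under 10 CPM, *Zfp467* belonged to the group through its PBS libraries, and a fall was built into its selection. KO against wildtype after LPS gave log2FC = -0.48 with an unadjusted p of 0.0681, and the LPS ranges of the genotypes overlapped.

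*Zfp395* (chr14:65595537-65636384, plus strand of GRCm39), which binds GC-rich elements of the huntingtin gene promoter, had 40.1, 31.2, 35.7 and 29.1 CPM at PBS and 9.84, 9.40, 6.99, 6.83 and 3.41 CPM after LPS in wildtype mice. The KO mice had 31.2, 35.4, 34.6, 29.9 and 31.9 CPM and 7.65, 8.92, 3.47, 6.32 and 4.11 CPM. The LPS levels stayed under the lowest PBS level by a wide margin in both, with log2FC of -2.22 ± 0.268 (SE) and -2.42 ± 0.261 (SE) (edgeR adjusted p = 2.06e-06 and 4.16e-07). As no LPS library reached 10 CPM, *Zfp395* too was selected through its PBS libraries.

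*Zfp69* (chr4:120787323-120808968, minus strand of GRCm39), a KRAB gene linked to diabetes in obese mice, fell from 22.8, 12.5, 22.6 and 20.9 CPM to 6.08, 3.88, 2.95, 3.64 and 4.18 CPM in wildtype mice and from 16.1, 23.8, 20.7, 21.2 and 21.3 CPM to 2.98, 3.49, 6.28, 3.02 and 6.71 CPM in KO mice. Its log2FC was -2.25 and -2.20. All its LPS libraries were under 10 CPM, so *Zfp69* was selected through its PBS libraries. The value is also uncertain because 51.3% of its 75-base words were shared with other genes, most with *Zfp934*. Reads could have been split between them.

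*Zfp366* (chr13:99321194-99387164, plus strand of GRCm39), a corepressor of nuclear receptors also known as the dendritic cell gene DC-SCRIPT, varied widely among the PBS libraries. In wildtype mice it had 10.4, 46.003, 17.5 and 23.5 CPM at PBS and 3.52, 9.93, 7.35, 6.37 and 5.03 CPM after LPS, and in KO mice 40.8, 16.4, 16.2, 15.9 and 17.8 CPM and 7.14, 5.37, 5.38, 5.48 and 1.73 CPM. The high PBS libraries were wildtype replicate 2 and KO replicate 1, yet the LPS levels were lower than all PBS levels, and log2FC was -1.92 ± 0.429 (SE) and -2.08 ± 0.417 (SE) (edgeR adjusted p = 0.00128 and 0.000398). Under 10 CPM in every LPS library, *Zfp366* was likewise selected through its PBS libraries. Within groups, its log2 CPM varied with the oligodendrocyte marker sum, with Pearson's r = 0.72 over the 19 libraries.

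*Zfp691* (chr4:119026710-119031424, minus strand of GRCm39), with 7 fingers, had 78.8, 54.5, 64.9 and 79.7 CPM at PBS and 32.7, 19.1, 23.8, 22.9 and 19.02 CPM after LPS in wildtype mice, and 74.3, 63.1, 65.8, 73.96 and 71.8 CPM and 17.9, 26.4, 19.3, 21.9 and 29.96 CPM in KO mice. *Zfp810* (chr9:22183979-22219350, minus strand of GRCm39), a KRAB gene, had 39.2, 33.8, 37.97 and 38.2 CPM and 27.6, 14.5, 13.9, 12.03 and 9.04 CPM in wildtype and 32.9, 33.2, 32.4, 47.9 and 40.8 CPM and 10.97, 14.6, 16.6, 11.9 and 11.04 CPM in KO mice. The LPS libraries were below the PBS libraries in both genes and both genotypes, with log2FC of -1.56 and -1.60 for *Zfp691* and -1.27 and -1.52 for *Zfp810*. *Zfp810* overlaps *Zfp809* on the other strand, and reads of the pair cannot be told apart where the strand used in counting is not stated.

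*Zfp41* fell from 21.7 ± 2.32 CPM (SD, n = 4) to 8.79 ± 2.69 CPM (SD, n = 5) in wildtype mice, with log2FC of -1.30 there and -1.32 in KO mice. *Zfp704* fell from 56.6 ± 12.5 to 22.8 ± 4.78 CPM in wildtype and from 64.5 ± 3.54 to 26.1 ± 10.1 CPM in KO mice, with log2FC of -1.31 and -1.30. *Zfp710*, which had the highest level per kb, also fell in both genotypes. Its levels were 443, 333, 433 and 367 CPM at PBS and 260.3, 202, 219.6, 83.1 and 118 CPM after LPS in wildtype mice, and 394, 404, 387, 372 and 383 CPM and 156, 231, 58.5, 143 and 169 CPM in KO mice. The LPS levels of *Zfp710* lay below the PBS levels throughout but were widely spread, with log2FC of -1.16 ± 0.305 (SE) and -1.36 ± 0.293 (SE). Its gene span is overlapped by that of *Idh2* on the other strand, at 70.9 CPM.

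The genes with and without a KRAB box were counted apart, beside 18.4% of all genes tested that rose and 17.4% that fell in wildtype mice and 20.1% and 19% in KO mice. Of the 88 with the box, 8 rose and 21 fell in wildtype mice (9.09% and 23.9%) and 10 rose and 22 fell in KO mice (11.4% and 25.0%). Of the 103 without it, 19 rose and 25 fell in wildtype (18.4% and 24.3%) and 19 rose and 27 fell in KO mice (18.4% and 26.2%). The difference between the classes was not tested, and the classes also differ in level. Median log2FC was -0.22 in wildtype and -0.20 in KO mice for the KRAB class, and -0.01 and 0.07 for the others. Of the 24 genes that rose in both genotypes 6 had a KRAB box, and of the 44 that fell in both 19 did.

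Beside shares of all genes tested of 18.4% higher and 17.4% lower in wildtype and 20.1% and 19% in KO mice, the genes were counted by number of fingers. The 55 genes with 5 to 9 fingers showed a median of 0.04 for the log2FC in either genotype, with 12 that rose and 12 that fell in wildtype (21.8% each) and 11 and 12 in KO mice. The 40 genes with 15 or more fingers had -0.23 and -0.23, with 2 that rose and 10 that fell in wildtype (5% and 25%) and 3 and 12 in KO mice (7.5% and 30%). The 30 genes with 0 to 4 fingers held 5 that rose and 10 that fell in wildtype (16.7% and 33.3%) and 6 and 11 in KO mice (20% and 36.7%), and the 66 genes with 10 to 14 fingers 8 and 14 in wildtype (12.1% and 21.2%) and 9 and 14 in KO mice. The differences between these classes were not tested. The median GC content of the longest transcript was 46.9% for the genes that rose in both genotypes and 47.3% for those that fell in both.

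**Figure D4:**
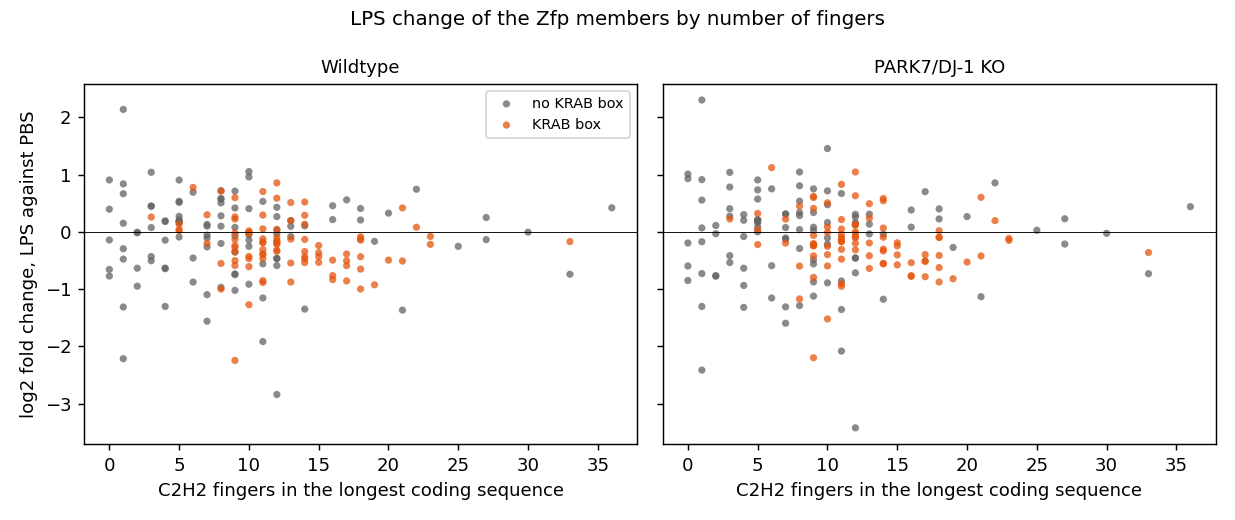
Log2 fold change of LPS against PBS (vertical axis) against the number of C2H2 fingers in the protein from the longest coding sequence (horizontal axis), for wildtype mice on the left and PARK7/DJ-1 KO mice on the right, with 1 point per gene coloured by whether a KRAB box was found. The greatest rise, that of *Zfp593*, belongs to a gene with 1 finger, and the 40 genes with 15 or more fingers have a median of -0.23 in each panel.

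The genes were spread over 20 chromosomes, with 43 on chromosome 7 and 21 on chromosome 17. On chromosome 7, 4 rose and 12 fell in each genotype (9.3% and 27.9%, against 18.4% and 17.4% of all genes tested in wildtype and 20.1% and 19% in KO mice), of which 2 rose in both and 12 fell in both. On chromosome 17, 3 rose and 5 fell in wildtype and 3 and 6 in KO mice. The start of another Zfp gene of the group lay within 100000 bases for 74 genes, 52 of them with a KRAB box.

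By role, the 11 genes that act on RNA, ribosomes, ubiquitin or SUMO had the greatest median change of the role lists, with log2FC of 0.45 in wildtype and 0.40 in KO mice. Of these, 4 rose in wildtype, namely *Zfp593*, *Zfp598*, *Zfp207* and *Zfp451*, 5 rose in KO mice, and 1 fell in both, or 36.4% and 45.5% that rose and 9.09% that fell. Over all genes tested, 18.4% rose and 17.4% fell in wildtype and 20.1% and 19% in KO mice, with medians of -0.06 and -0.01, and the lists that follow are read against the same shares. *Zfp207*, a spindle assembly protein that binds Bub3, had 149 ± 16.2 CPM (SD, n = 4) at PBS and 236 ± 17.1 CPM (SD, n = 5) after LPS in wildtype mice (log2FC = 0.66, and 0.55 in KO mice). *Zfp451*, a SUMO ligase, had log2FC of 0.58 and 0.80. *Zfp622*, which acts in maturation of the large ribosomal subunit, passed the test in KO mice alone, with log2FC of 0.78 (edgeR adjusted p = 0.00383) against 0.45 in wildtype (adjusted p = 0.109). The interaction of *Zfp622* with genotype had an unadjusted p of 0.273, so the genotypes were not shown to differ. *Zfp706* fell, with log2FC of -0.66 and -0.60. *Zfp638*, a partner of the HUSH silencing complex, had -0.01 and 0.11 and did not pass the test.

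Among the 10 genes known as partners of chromatin complexes, 1 rose and 2 fell in each genotype (10% and 20%), and their median log2FC was -0.23 and -0.20. The riser was *Zfp516*. *Zfp827*, which brings the NuRD complex to telomeres, fell from 25.7 ± 3.87 CPM (SD, n = 4) to 10.1 ± 2.51 CPM (SD, n = 5) in wildtype mice, with log2FC of -1.35 and -1.18. *Zfp532*, a partner of ZMYND8 together with *Zfp592* and *Zfp687*, fell by log2FC of -0.92 and -0.89. *Zfp592* had values of 0.10 and 0.04 and did not pass, and *Zfp687* had -0.36 and -0.49, under the fold threshold.

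The 15 genes listed as sequence-specific regulators had medians of 0.10 and 0.18, with 3 that rose and 4 that fell in each genotype (20% and 26.7%). The risers were *Zfp281*, *Zfp131* and *Zfp263*, the last with log2FC of 0.71 and 0.75. The search found no KRAB box in *Zfp263*, but the gene is known for SCAN and KRAB domains, so its place among the genes without the box is uncertain. The fallers were *Zfp395*, *Zfp362*, *Zfp219* and *Zfp277*. *Zfp219*, a partner of SOX9, went from 57.95 ± 3.48 CPM (SD, n = 4) to 34.5 ± 3.91 CPM (SD, n = 5) in wildtype and from 60.8 ± 2.19 CPM to 33.1 ± 5.43 CPM (SD, n = 5 each) in KO mice, and *Zfp362* had log2FC of -0.88 and -1.16. The gene span of *Zfp219* is overlapped by that of *Arhgef40* on the other strand, at 190 CPM. *Zfp703* had values of -0.14 and -0.20 and did not pass.

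Of the 4 KRAB genes with a known target, 1 rose and none fell in either genotype, a list too short for its shares to be read. *Zfp568*, whose protein silences a placental *Igf2* transcript, had 27.99, 20.6, 26.3 and 19.9 CPM at PBS and 36.6, 36.1, 39.6, 38.5 and 42.2 CPM after LPS in wildtype mice, and 19.9, 21.5, 22.6, 20.6 and 28.7 CPM and 30.7, 36.8, 38.04, 41.6 and 54.1 CPM in KO mice. Its LPS libraries stood above the PBS libraries in both genotypes, with log2FC of 0.70 ± 0.154 (SE) and 0.83 ± 0.144 (SE) (edgeR adjusted p = 0.00109 and 0.000102). *Zfp445*, which protects imprinted regions, had log2FC of 0.04 and 0.12, and *Zfp809*, which silences murine leukaemia virus, 0.30 and 0.22, without passing the test. *Zfp746* encodes PARIS, a substrate of the ubiquitin ligase parkin, another product of a Parkinson's disease gene. It had 58.7 ± 3.24 CPM (SD, n = 4) at PBS and 70.1 ± 6.23 CPM (SD, n = 5) after LPS in wildtype mice, a log2FC of 0.26, and 0.23 in KO mice, both under the fold threshold.

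The corepressor machinery that KRAB proteins recruit was listed separately, since it belongs to the same pathway. Of its 28 genes 7 rose and 2 fell in wildtype mice, and 8 rose and 3 fell in KO mice. These are 25% and 7.14% in wildtype and 28.6% and 10.7% in KO mice, where 18.4% and 17.4%, and 20.1% and 19%, of all genes tested rose and fell, and the difference was not tested. *Trim28*, the scaffold itself, rose with log2FC of 0.80 and 0.75, and the NuRD subunits *Chd4* (0.81 and 0.90) and *Gatad2a* (0.86 and 0.86) rose as well. *Atf7ip*, the cofactor of the histone methyltransferase SETDB1, fell by -0.84 and -0.91 in log2FC, while *Setdb1* had 0.10 and 0.04 and did not pass. Of the 20 tested Krüppel-like and Sp factors, a sister class of zinc finger genes, 3 rose in both genotypes (*Klf13*, *Klf7* and *Klf16*) and 1 fell in both (*Klf12*), or 15% and 5% against 16.8% and 15.4% of all genes tested. In all, 3 rose and 2 fell in wildtype mice, and 5 rose and 1 fell in KO mice.

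Promoter windows, from 250 bases before to 50 bases after a start site, were matched by symbol from RefSeq on GRCm38.p6 for 153 of the 191 genes. The 250 bases before the start were searched on both strands for 3 motifs. The kappaB motif, bound by NF-kappaB, was present in 7 of the 153 genes (4.58%, against 4.46% of all 27025 genes with a window). An interferon-stimulated response element was present in 4 (2.61%, against 3.46%), and the cAMP response element, TGACGTCA, in 8 (5.23%, against 1.77%). Of the 18 matched genes that rose in both genotypes, 1 held the kappaB motif, 1 the interferon element and 0 the cAMP element. Of the 36 matched genes that fell in both, 1, 1 and 2 did. A match is a string of letters, not a bound site, and no binding was measured.

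For the 6 genes that changed in both genotypes and held a match, 80 bases of the promoter are shown with the match in capitals, 5′ to 3′ on the strand of the gene, all on the minus strand of GRCm38.p6. *Zfp131* (chr13:119790903-119790982) and *Zfp213* (chr17:23564361-23564440) rose, with a kappaB motif and an interferon element. *Zfp974* (chr7:27929459-27929538, kappaB), *Zfp994* (chr17:22225632-22225711, interferon element), *Zfp367* (chr13:64152435-64152514, cAMP element) and *Zfp953* (chr13:67360581-67360660, cAMP element) fell.
Zfp131: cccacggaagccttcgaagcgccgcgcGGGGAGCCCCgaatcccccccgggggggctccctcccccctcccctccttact
Zfp213: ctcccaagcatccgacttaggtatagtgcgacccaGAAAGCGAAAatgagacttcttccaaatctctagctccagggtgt
Zfp974: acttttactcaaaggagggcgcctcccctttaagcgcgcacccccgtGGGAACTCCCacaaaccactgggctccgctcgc
Zfp994: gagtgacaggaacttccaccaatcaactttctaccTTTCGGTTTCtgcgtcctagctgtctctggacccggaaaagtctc
Zfp367: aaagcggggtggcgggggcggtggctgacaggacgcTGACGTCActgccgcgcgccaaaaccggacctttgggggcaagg
Zfp953: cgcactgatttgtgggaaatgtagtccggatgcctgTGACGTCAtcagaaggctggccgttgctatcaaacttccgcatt

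Of the genes with these windows, *Zfp131* was described above as one of the 8 with the greatest rise. *Zfp213* had log2FC of 0.53 and 0.73, *Zfp974* -1.37 and -1.13, and *Zfp994* -0.59 and -0.52. *Zfp367* had -0.95 and -0.78, and *Zfp953* -0.55 and -0.60. Each motif thus stood before genes that fell, and the kappaB and interferon motifs also before a gene that rose. *Zfp974* and *Zfp994* shared 21.5% and 12.5% of their 75-base words with other genes.

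KO against wildtype asked whether the loss of DJ-1 changed the Zfp genes, at PBS and after LPS. A gene was called at an unadjusted p-value under 0.05 and a |log2FC| of at least 0.5, and the smallest adjusted p of a Zfp gene was 1.00 in either comparison. After LPS 1 of the 191 genes was called, as lower, where 1.31% of all genes tested were called (0.763% as lower), and 6 had an unadjusted p under 0.05, where 2.57% of all genes did. At PBS 0 were called by edgeR, where 0.8% of all genes were, with 0 called by DESeq2, and 1 had an unadjusted p under 0.05 (1.04% of all genes). Over the 191 genes log2FC lay between -0.54 and 0.73 after LPS and between -0.28 and 0.27 at PBS.

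The called gene was *Zfp771* (chr7:126843239-126854136, plus strand of GRCm39), which has 8 fingers. After LPS its levels were 18.97, 19.99, 18.2, 18.01 and 19.2 CPM in wildtype and 14.005, 15.7, 10.2, 9.01 and 16.02 CPM in KO mice. At PBS they were 11.8, 14.1, 8.74 and 11.2 CPM and 12.8, 8.59, 10.8, 10.004 and 9.29 CPM. After LPS all 5 KO libraries lay below all 5 wildtype libraries, as in 0.16% of all genes tested, and the PBS groups overlapped. Log2FC was -0.54 ± 0.170 (SE) after LPS (edgeR unadjusted p = 0.00516, adjusted p = 1.00) and -0.16 ± 0.181 (SE) at PBS (unadjusted p = 0.398). The call was lost without KO LPS replicate 3 (log2FC = -0.46) or replicate 4 (-0.44), the lowest libraries. *Zfp771* rose with LPS in wildtype mice (log2FC = 0.72, edgeR adjusted p = 0.00353) and did not pass in KO mice (0.34, adjusted p = 0.118), but the interaction had an unadjusted p of 0.140.

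*Zfp106* (chr2:120336470-120394360, minus strand of GRCm39) was the one Zfp gene with an unadjusted p under 0.05 in both genotype comparisons, which use different mice, though its change was under the fold threshold. At PBS it had 198, 264, 209 and 199.6 CPM in wildtype and 279.9, 284, 251, 234 and 264 CPM in KO mice. After LPS it had 274, 317, 285, 306 and 301 CPM and 413, 362, 351, 338 and 272 CPM. The genotypes overlapped in both treatments, with log2FC of 0.27 ± 0.115 (SE) at PBS (edgeR unadjusted p = 0.0286) and 0.23 ± 0.108 (SE) after LPS (unadjusted p = 0.0492). Its level varied with the oligodendrocyte marker sum within groups (Pearson's r = 0.69 over 19 libraries), and with that sum as a covariate, log2FC was 0.27 at PBS and 0.19 after LPS. The unadjusted p was under 0.05 in 20 of 28 alternative settings at PBS and in 8 of 28 after LPS. The gene also overlaps *Capn3* on the other strand.

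The other genes with an unadjusted p under 0.05 after LPS were *Zfp362*, *Zfp579*, *Zfp516* and *Zfp991*. *Zfp362* and *Zfp579* were lower in KO mice, with log2FC of -0.32 and -0.39. *Zfp516* and *Zfp991* were higher, with 0.41 and 0.49. Of the 75-base words of *Zfp991*, 54.4% are shared with other genes. DESeq2 called *Zfp991* higher, with log2FC of 0.51.

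The interaction of genotype and LPS tested whether the LPS change differed between genotypes. No Zfp gene passed an adjusted p of 0.05, which 0 of the 18739 genes did, and 1 of the 191 had an unadjusted p under 0.05, where 0.961% of all genes did. This was *Zfp202*, a SCAN-domain repressor of lipid metabolism genes. Its levels were 13.2, 10.8, 12.7 and 10.6 CPM at PBS and 18.6, 14.8, 18.8, 15.4 and 16.4 CPM after LPS in wildtype mice, and 7.30, 9.24, 10.7, 10.3 and 11.1 CPM and 12.8, 23.7, 20.996, 17.7 and 25.1 CPM in KO mice. LPS levels were above PBS levels in both genotypes, the means of the KO mice being lower at PBS (0.126 as unadjusted p) and higher after LPS (0.144), and the interaction was 0.54 ± 0.244 (SE) on the log2 scale (edgeR unadjusted p = 0.0397, adjusted p = 1.00). *Zfp429* and *Zfp37* had the next smallest unadjusted p-values, 0.0859 and 0.102, with interactions of 0.49 and 0.34.

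**Figure D5:**
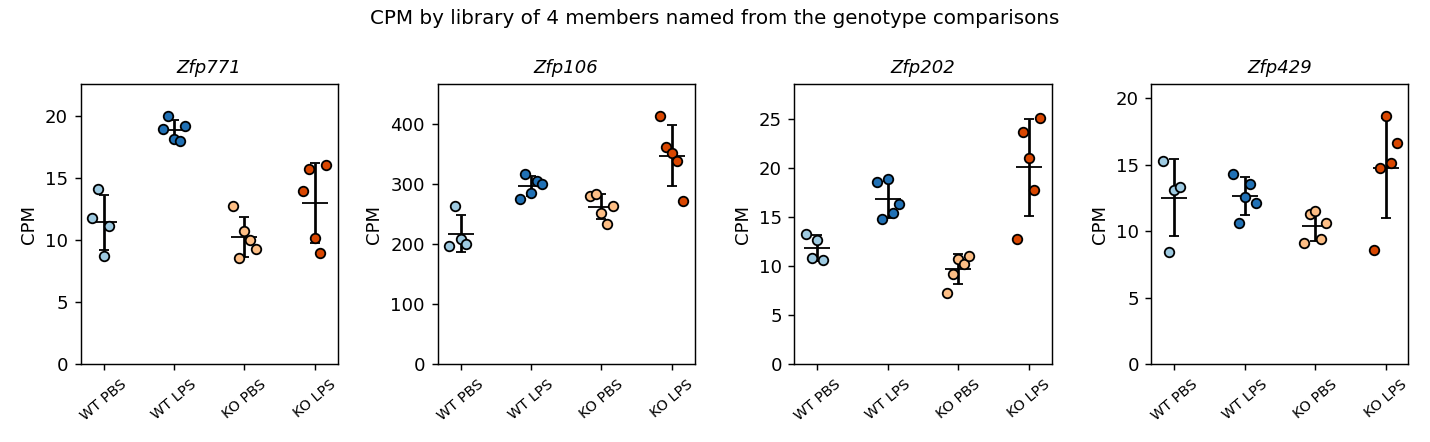
CPM after TMM normalization (vertical axis, linear from 0) in each library of the 4 groups, 1 point per mouse with the mean and SD, for *Zfp771*, *Zfp106*, *Zfp202* and *Zfp429*. The 5 KO LPS points of *Zfp771* lie below the 5 WT LPS points, and the genotypes overlap in the other panels.

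Within groups, several Zfp genes varied together across mice. After the group means were subtracted from log2 CPM, the 5 pairs most alike over the 19 libraries were *Zfp263* with *Zfp62* (Pearson's r = 0.936), *Zfp839* with *Zfp710* (0.935), *Zfp655* with *Zfp326* (0.927), *Zfp326* with *Zfp62* (0.922) and *Zfp90* with *Zfp398* (0.921). These values are descriptions, since the points share libraries, depth and cell make-up. In 4 of the 5 pairs both genes were negatively correlated with the oligodendrocyte sum, with r between -0.78 and -0.50, and *Zfp839* and *Zfp710* had -0.24 and -0.11. Over all 191 genes r with the oligodendrocyte sum ranged from -0.85 (*Zfp292*) to 0.91 (*Zfp365*), with *Zfp664* at 0.90. *Zfp365*, whose longest protein held no finger of the searched form, had 17.1 ± 17.2 CPM (SD, n = 4) at PBS and 22.5 ± 12.05 CPM (SD, n = 5) after LPS in wildtype mice and 18.6 ± 17.3 and 37.3 ± 34.8 CPM (SD, n = 5 each) in KO mice, an SD close to or above many of the differences. With the oligodendrocyte sum as a covariate 25 genes rose and 49 fell in wildtype mice, and 30 rose and 50 fell in KO mice. Of all 18739 genes tested, 3591 rose and 3510 fell in that fit in wildtype, and 3955 and 3848 in KO mice.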

How the data were processed

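Bulk RNA-sequencing libraries of CD11b+ brain cells from 19 male mice were analysed (5 KO LPS, 5 wildtype LPS, 5 KO PBS, 4 wildtype PBS, 1 library per mouse). Per the methods and labels, the authors isolated the cells on magnetic beads, removed ribosomal RNA, and made strand-marking libraries of total RNA. Paired reads were trimmed (Cutadapt), then mapped to GRCm39 and counted, for which STAR 2.7.9a is named. The values deposited by the authors are raw read counts per Ensembl gene and mouse, without normalization. The strand setting of the counting is not given in the sources used here, and 45 of the 191 genes overlap a gene of at least 1 CPM on the other strand. All 56980 genes entered, 18739 passed filterByExpr (minimum count 10, minimum total count 15), and 56236 were matched to GENCODE M39 on the same build.

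The fit was a quasi-likelihood model of the counts with 4 groups (edgeR 4.0.16 under R 4.3.3, TMM), and p-values were adjusted by the Benjamini-Hochberg method over all genes tested. The SE is the size of the log2FC divided by the square root of F, and log2 CPM used a prior count of 2. LPS calls used an adjusted p under 0.05, genotype calls an unadjusted p under 0.05, both with |log2FC| of at least 0.5, and the interaction an adjusted p under 0.05. CPM values of single genes are after TMM, and raw CPM of the selection rule are not. The scripts were tested on simulated counts. No 2 libraries of a group were alike within counting noise (36 pairs, chi-square per degree of freedom of at least 6.50).

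The genes and lists were chosen with earlier results of these data known. Genes were named by a rule: per direction the 8 with the greatest mean log2FC of both genotypes among those called in both without overlap of libraries, every gene called between genotypes, the 3 smallest interaction p-values, the 5 highest levels per kb, the 2 genes on each side of the level threshold, examples of the role lists and the 5 most alike pairs. Others with an unadjusted p under 0.05 between genotypes, and those with a promoter match or an extreme correlation, were named after their values were seen. Fingers and KRAB boxes were to be read from RefSeq proteins, and were read from translated GENCODE coding sequences with Biopython 1.88, since a protein table was not used here. Alternatives were DESeq2 1.42.0, other scalings and filters, the replicate number as a block, each mouse left out, and, added after the data were seen, an oligodendrocyte covariate.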

Additional observations from a re-analysis of the deposited data

Results flagged for a closer look

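Dixon's ratio was taken on log2 CPM for 20 named genes, and on the summed Zfp share of counts, in each of the 4 groups. Of these 84 tests, 4 found a library far from the others of its group, which chance gives in about 1 in 20 tests. *Zfp69* in wildtype PBS replicate 2 was at 12.5 CPM, with the other libraries of the group between 20.9 and 22.8 CPM. *Zfp366* in KO PBS replicate 1 was at 40.8 CPM, where the others were between 15.9 and 17.8 CPM. *Zfp366* in KO LPS replicate 5 was at 1.73 CPM, where the others were between 5.37 and 7.14 CPM. *Zfp704* in wildtype PBS replicate 2 was at 75.2 CPM, and the others were between 49.5 and 51.6 CPM. Wildtype PBS replicate 2 and KO PBS replicate 1 had the highest oligodendrocyte marker sums of their groups, 10041 and 7618 CPM. KO LPS replicate 5, at 1752 CPM, did not. Pearson's r with that sum within groups was 0.60 for *Zfp704*, -0.50 for *Zfp69* and 0.72 for *Zfp366*. Its part in these values was not tested.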

How the results depend on the processing

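The counts of Zfp genes called with LPS stayed within 1.5 times their value in every setting tried. With all mice, the alternatives gave 19 to 27 higher and 42 to 61 lower in wildtype and 20 to 30 higher and 45 to 61 lower in KO mice. Leaving out 1 mouse at a time, the ranges were 22 to 28 and 40 to 55 in wildtype and 25 to 32 and 42 to 51 in KO mice. The 8 genes named for their rise and the 8 for their fall kept their direction and their side of the threshold in these settings. KO against wildtype after LPS had 0 genes higher and 1 lower. The count higher was 1 with DESeq2's size factors, with DESeq2 and with the oligodendrocyte covariate, a setting chosen after seeing the data, and the gene was *Zfp991* in each case. Without 1 mouse, the count higher and the count lower each ranged from 0 to 2. No gene was called lower without KO LPS replicate 3 or 4. Without KO LPS replicate 1, *Zfp516* and *Zfp991* were called higher and *Zfp467* and *Zfp771* lower. *Zfp991* and *Zfp467* joined *Zfp771* without wildtype LPS replicate 4, *Zfp516* and *Zfp467* did so without wildtype LPS replicate 5, and *Zfp991* alone without KO LPS replicate 5 or wildtype LPS replicate 3. The unadjusted p of *Zfp106* was under 0.05 in 8 of 28 alternatives after LPS (0.00780 to 0.159) and in 20 of 28 at PBS (0.00408 to 0.0870). At PBS, and in the interaction, 0 genes were called in every setting. The replicate number as a block gave 22 higher and 46 lower in wildtype, 27 and 49 in KO mice, and 0 and 1 for genotype after LPS. The numbers are not taken to pair the mice, since not every pair was over 0.1: same-numbered LPS and PBS libraries correlated at 0.58, 0.53, -0.04 and 0.23 for numbers 1 to 4 in wildtype and at 0.54, 0.15, 0.03, 0.33 and 0.22 for numbers 1 to 5 in KO mice, with 3 of 4 and 3 of 5 best with their own number, a hint from the data and not from the design.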

Other observations

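Of the Krüppel-like and Sp genes, zinc finger factors outside the Zfp naming, *Klf13* had a log2FC with LPS of 1.66 ± 0.140 (SE) in wildtype and 1.70 ± 0.129 (SE) in KO mice, and its mean in wildtype was 191 CPM at PBS (n = 4) and 603 CPM after LPS (n = 5). *Klf7* had 0.81 ± 0.181 (SE) and 1.16 ± 0.170 (SE). *Klf12* had log2FC of -2.05 ± 0.242 (SE) in wildtype and -1.62 ± 0.230 (SE) in KO mice, with means of 62.4 and 15.02 CPM in wildtype mice. *Klf6* passed the test in KO mice (log2FC = 0.62, edgeR adjusted p = 0.0297) and not in wildtype mice (0.52, adjusted p = 0.0932), with an unadjusted interaction p of 0.756, so the genotypes were not shown to differ.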
